A study of Rattus norvegicus with 12 samples.

Results

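Colonic gene expression was compared between Group M and Group C, 8 of the 12 rats of the series. All were male Wistar rats. The 4 rats of Group M (M5 to M8) had been taken from their mothers for 180 minutes a day from day 2 to day 14 (neonatal maternal separation, NMS), and the 4 rats of Group C (C1 to C4) had been handled normally (NH). Both groups received the same placebo, 100 µl of saline by gavage from day 3 to day 60, both underwent colorectal distension (CRD) with a balloon, and both were killed at day 60, so that the groups differ by NMS and share all the rest of the treatment. The remaining 4 rats (Group D) had NMS with a probiotic, and 3 of them enter the limma model for the spread alone. These 3 also enter the analysis of variance and the choice of the brightest probe of each gene described below. The litter of each rat is not given in the sources used here, and p-values therefore measure the spread between these rats, which may be littermates.

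NMS is used as a model of visceral hypersensitivity, in which the adult colon responds to distension more strongly. A piece of colon holds an epithelium that absorbs salt and short-chain fatty acids, a lamina propria with mast cells, plasma cells and macrophages, scattered lymphoid follicles rich in B cells, and a wall of smooth muscle with enteric neurons and glia. Mast cells release histamine and proteases close to nerve endings, and genes such as Arc, Fosl1 and Hspa1b respond within a short time to stimulation, stretch or heat.

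Each rat had 1 array, and values are log2 signals after subtraction of that array's 75th percentile. The signal of that percentile ranged from 1434 to 1919, the share of spots well above background from 75.9% to 77.5%, and saturation was seen at 0 spots. Markers of the labelled tissue were present. All 12 markers of absorptive colonocytes, all 11 of smooth muscle on the array and 9 of 10 of goblet cells were well above background in all 8 rats. So were 3 of 10 of pancreatic acinar cells, 5 of 8 of adipocytes, 6 of 10 of squamous epithelium of the anal margin and 7 of 9 of skeletal muscle. All 8 arrays lay on 1 slide, Group C in one row of arrays and Group M in the other, so that row and group cannot be told apart. Rats C2 and M6 stood apart from their groups. Across probes well above background, the array of C2 correlated most closely with that of M5 (r = 0.990) and the array of M6 with that of C1 (r = 0.993), while every other rat correlated best with a rat of its own group. These are correlations across genes, which are not independent. In bulk tissue, more cells of a type and more RNA per cell cannot be told apart.

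The oligonucleotides below are those of Adh4 and Try10, of wide separation, of Mrps10, of narrow spread, and of the RT1-Bb probe that did not separate the groups, shown so that a reader can see which part of each transcript was measured. Each has 60 bases and is open in at least 1 reading frame over its whole length. The Adh4 probes lie at chr2:235967986-235968045 and chr2:235969121-235969180 on the plus strand. The others lie on the minus strand, Mrps10 at chr9:9077319-9077378, Try10 at chr4:69053166-69053225 and the second RT1-Bb probe at chr20:4732187-4732246 (rn4).
Adh4, probe 1: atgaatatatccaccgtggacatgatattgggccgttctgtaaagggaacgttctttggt
Adh4, probe 2: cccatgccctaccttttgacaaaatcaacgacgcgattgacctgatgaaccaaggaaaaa
Mrps10: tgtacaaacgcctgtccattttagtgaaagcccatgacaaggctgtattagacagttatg
Try10: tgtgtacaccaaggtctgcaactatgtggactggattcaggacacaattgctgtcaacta
RT1-Bb, probe 2: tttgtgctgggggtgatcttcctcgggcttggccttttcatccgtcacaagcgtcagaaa

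Genes higher in Group M included the stress-responsive Hspa1b and Arc, the matrix gene Thbs1 and the mast cell gene Hdc, and genes lower in Group M included Adh4 and Aldh1a1 of retinoid metabolism, Dio1 of thyroid hormone metabolism and Dbt of branched-chain amino acid breakdown. A probe was called by limma where it differed 2-fold or more with an adjusted p not above 0.05, which 50 of 30367 probes did (0.165%), 28 of them higher (0.0922%) and 22 lower (0.0724%) in Group M. With normexp background correction in place of the corrected signal, the share of higher probes among the calls moved from 56% to 73.1%. The criterion of the study's methods (an analysis of variance over the 3 groups, a Tukey test and a 2-fold change, without adjustment for the number of probes) was passed by 701 probes (2.31%), 417 upwards (1.37%) and 284 downwards (0.935%). The groups did not overlap in any of the 50 probes called by limma, while 9.22% of all probes did not overlap, 4.18% upwards and 5.04% downwards. The count by limma depended on single rats. It was 5 without C1, 66 without C2, 7 without C3 and 12 without C4. Without M6 it was 1772, and without M5, M7 or M8 it was 10 to 16. The number of arrays limits the precision.

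Hspa1b encodes an inducible chaperone of the Hsp70 family. Its log2 signal was -0.69, 1.70, 0.19 and -0.94 in C1 to C4 and 4.20, 2.65, 4.46 and 3.76 in M5 to M8. Every rat of Group M lay above every rat of Group C, a log2 difference of 3.70 (SE 0.59, limma adjusted p = 0.0470). A second probe of Hspa1b was not well above background in any of the 8 rats. Arc, an immediate early gene best known from neurons, had -4.88, -3.29, -4.29 and -5.10 in Group C and -1.53, -2.34, -1.37 and -1.38 in Group M. It rose by 2.74 (SE 0.39, limma adjusted p = 0.0405), and C2 was the highest rat of Group C and M6 the lowest of Group M. Rcan1, a calcium-responsive inhibitor of calcineurin, rose at both of its probes, by 2.47 and 1.68 on the log2 scale, without overlap of the groups.

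Thbs1 encodes thrombospondin 1, a matrix protein that activates TGF-beta. Its log2 signal was -5.85, -4.49, -5.92 and -6.02 in Group C and -3.46, -3.08, -2.04 and -2.72 in Group M. The difference was 2.74 (SE 0.37, limma adjusted p = 0.0361), with no overlap between the groups. Pim1, a kinase induced by STAT signalling, had -4.61, -4.52, -5.34 and -4.64 in Group C and -2.80, -3.37, -2.46 and -3.03 in Group M, a log2 difference of 1.86 (SE 0.24, limma adjusted p = 0.0268). Fgf7, a fibroblast growth factor that acts on epithelium, rose by 1.90 (SE 0.28). Pde10a, a phosphodiesterase of cyclic nucleotides, rose by 1.80 (SE 0.23), and its second probe had a difference of 1.56 with an adjusted p of 0.0701 by limma. Samd4a, which encodes an RNA-binding repressor of translation, and Fgl2, a fibrinogen-like protein of immune cells, rose by 1.67 and 1.53. Xirp1, an actin-binding protein of striated muscle, was not well above background in any rat of Group C, and Group M exceeded it by at least 6.86-fold.

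Mrps10, a protein of the small subunit of the mitochondrial ribosome, had -5.16, -5.02, -5.16 and -5.06 in Group C and -2.92, -2.98, -2.94 and -2.77 in Group M. This difference of 2.20 (SE 0.11) had the smallest adjusted p of all probes by limma, 4.6e-05, and the SD was 0.070 in Group C and 0.091 in Group M. Ccng1, which encodes cyclin G1, a target of p53, had -3.16, -2.73, -2.86 and -0.96 in Group C and 0.02, -0.03, 0.04 and 0.08 in Group M. It rose by 2.45 (SE 0.39, limma adjusted p = 0.0470). The spread of Ccng1 was 0.048 (SD) in Group M and 0.995 in Group C, where C4 was the highest rat. In a list of 15 targets of p53, 8 had a difference above 0, and the median was 0.08.

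**Figure D1:**
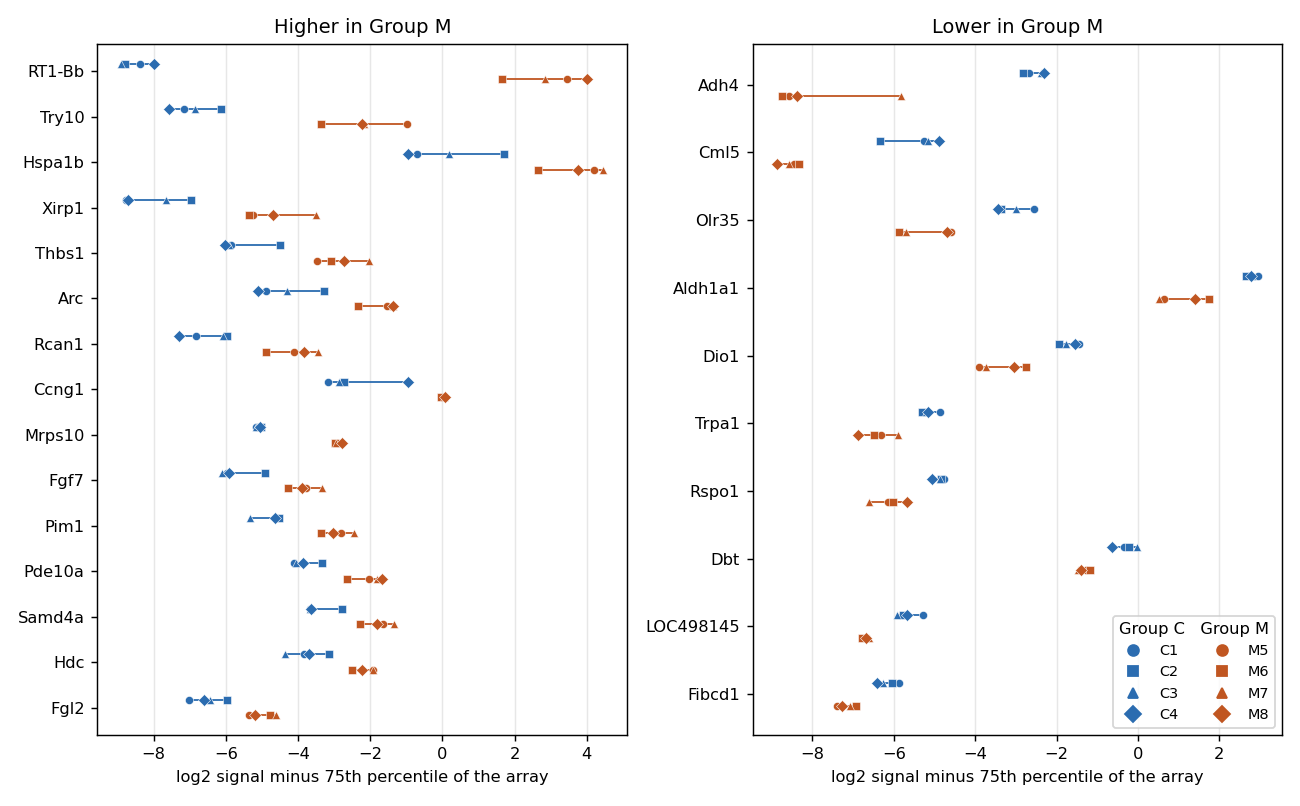
Log2 signal relative to the 75th percentile of the array (x axis) of the 15 genes with the largest rise and the 10 genes with a fall that limma called and that were well above background in all rats of the higher group, 1 point for each rat, with a line from the lowest to the highest rat of each group of 4. The groups do not overlap in any of these genes, and the ranges of Mrps10 in both groups together are the narrowest among them.

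Among the genes that fell, Adh4, an alcohol dehydrogenase that also oxidizes retinol, had the widest separation. At the first probe it had -2.68, -2.83, -2.39 and -2.30 in Group C and -8.58, -8.75, -5.83 and -8.39 in Group M, a log2 difference of -5.34 (SE 0.56, limma adjusted p = 0.0120). In Group M, 1 of 4 rats was well above background at this probe. The second probe differed by -4.35 (SE 0.48, limma adjusted p = 0.0145), again without overlap. Aldh1a1, which oxidizes retinal to retinoic acid, had 2.96, 2.66, 2.80 and 2.78 in Group C and 0.65, 1.74, 0.52 and 1.40 in Group M. Its difference was -1.72 (SE 0.25, limma adjusted p = 0.0421). These 2 genes were the only members of the retinoid pathway list that passed either test with all rats, and the median of its 20 members was 0.03. Without M6, 4 members passed the criterion downwards and 3 upwards, where 5.84% of all probes passed in either direction.

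Dio1, a deiodinase of thyroid hormone, had -1.46, -1.94, -1.78 and -1.56 in Group C and -3.90, -2.75, -3.73 and -3.06 in Group M, a log2 difference of -1.68 (SE 0.24, limma adjusted p = 0.0405). Thrb, a receptor of thyroid hormone, passed the criterion with a difference of -1.63 (limma adjusted p = 0.0992). Dbt, a subunit of the complex that degrades branched-chain keto acids, had -0.34, -0.21, -0.02 and -0.65 in Group C and -1.27, -1.18, -1.47 and -1.41 in Group M. The difference was -1.03 (SE 0.13, limma adjusted p = 0.0292), with no overlap. Rspo1, a secreted enhancer of Wnt signalling, and Trpa1, a cation channel of irritant sensing, had differences of -1.23 (SE 0.19) and -1.26 (SE 0.19). Olr35, named as an olfactory receptor, had a difference of -2.13 (SE 0.31). Fibcd1, an endocytic receptor of acetylated compounds, and LOC498145 (Fam220a) had differences of -1.01 and -1.02. A second probe of Fibcd1 had a difference of -0.30 (limma adjusted p = 0.759) with overlap of the groups. It was well above background in 1 rat of Group M and in no rat of Group C.

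Some called probes lay near each other in the genome. On chromosome 4, Try10, a trypsinogen, had -7.15, -6.14, -6.84 and -7.59 in Group C and -0.99, -3.37, -2.17 and -2.24 in Group M, a difference of 4.74 (SE 0.76, limma adjusted p = 0.0470). Its second probe had a difference of 1.51 (limma adjusted p = 0.0867), without overlap. At the first probe, 1 of 4 rats of Group C was well above background, so that the size of its difference rests partly on background signal. The same held for a neighbouring trypsin probe named LOC362347 (Prss3), at which the groups did not overlap (limma adjusted p = 0.0511). LOC362347 was the only one of the 10 pancreatic acinar cell markers on the array past the criterion, and the median of that list was 0.03. On the same chromosome, Cml5 (Nat8f5), an N-acetyltransferase, had -5.26, -6.34, -5.16 and -4.89 in Group C and was not well above background in any rat of Group M. It was at least 4.91-fold lower there (limma adjusted p = 0.00439), and its neighbour Cml3, measured in 3 of 4 rats of Group C, at least 3.39-fold lower.

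In the major histocompatibility complex on chromosome 20, RT1-Bb encodes the beta chain of a class II molecule, which presents antigen to T cells. The first probe of RT1-Bb, at chr20:4730533-4730583, was not well above background in any rat of Group C and had 3.47, 1.66, 2.84 and 4.02 in Group M, at least 1745.5-fold higher (limma adjusted p = 0.0292). In the 4 rats of Group D, the signal of this probe was -6.11, 1.89, 1.93 and -8.20. The second probe, printed above, had 2.00, 3.15, 2.02 and 2.45 in Group C and 3.35, 1.63, 2.61 and 2.74 in Group M. Its difference of 0.18 (SE 0.35, limma adjusted p = 0.820) lay within the spread of the rats, so that the 2 probes of RT1-Bb disagree. RT1-Ba, the alpha chain, was not well above background in Group C, and Group M exceeded it by at least 3.94-fold, where 3 of 4 rats measured it (limma adjusted p = 0.0867). Of 9 class II genes, each taken at its brightest probe, only RT1-Ba passed the criterion, and only RT1-Ba did not overlap. All 9 had a difference above 0, with a median of 0.60. Their median difference from the mean of Group C was 0.72 in C2 and -0.38 in M6, so that the groups overlapped.

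**Figure D2:**
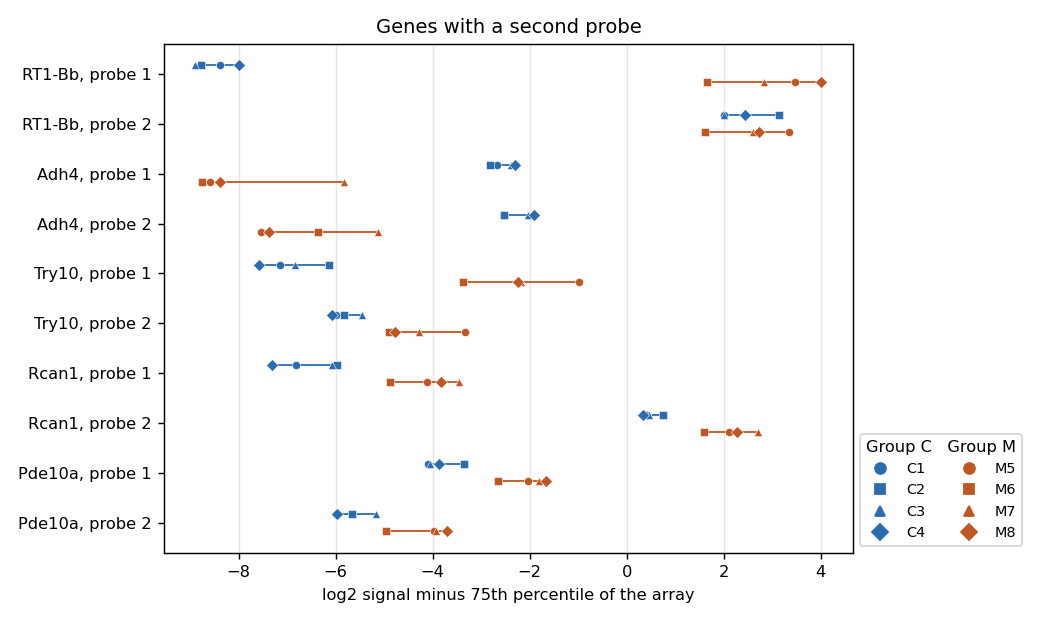
Log2 signal relative to the 75th percentile of the array (x axis) at both probes of 5 genes, 1 point for each rat and a line over the range of each group of 4. The probes of Adh4, Try10, Rcan1 and Pde10a separate the groups alike in direction, while only the first probe of RT1-Bb separates them.

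To describe pathways and cell types, 56 lists with 760 entries were drawn up, of which 734 had a probe, and each gene was measured by its brightest probe. Over 1 probe for each of 19337 named genes, the criterion of the methods was passed upwards by 1.49% and downwards by 1.08%, limma called 0.109% upwards and 0.0776% downwards, the groups did not overlap upwards in 4.56% and downwards in 5.79%, and 46.6% had a difference above 0. Counts of list members below are to be read against these values. Without M6, 5.84% of all probes passed the criterion, 1092 upwards and 680 downwards. Without C2, 3.3% did, 595 upwards and 408 downwards. List counts without 1 of these rats are to be read against those shares.

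All 10 members of the mast cell list that were measured had a difference above 0. Of these, 6 passed the criterion upwards, 7 did not overlap and the median difference was 1.13. Hdc, which makes histamine, had -3.85, -3.14, -4.35 and -3.70 in Group C and -1.92, -2.50, -1.93 and -2.22 in Group M, and rose by 1.61 (SE 0.23, limma adjusted p = 0.0421). Tpsab1, a tryptase, had a difference of 3.38 (limma adjusted p = 0.0961), Cma1, a chymase, one of 1.51 (limma adjusted p = 0.105) and Fcer1a, a chain of the IgE receptor, one of 1.39 (limma adjusted p = 0.121). The list score of a rat, the median difference of the members from the mean of Group C, was -0.11, 0.41, -0.08 and -0.15 in C1 to C4 and 1.27, 0.93, 1.23 and 0.90 in M5 to M8. The groups did not overlap in this score, and M6 lay between M8 and M7. This was not particular to mast cells. The scores of the plasma cell, JAK-STAT feedback, wound matrix and heat shock lists did not overlap either. The same held for the lists of oxidative stress and of endoplasmic reticulum and amino acid stress. Without C2, 4 of the 10 passed the criterion.

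In the TGF-beta and wound matrix list, 8 of 21 members passed the criterion upwards and none downwards, with a median of 1.01. Timp1, an inhibitor of metalloproteinases, had 0.13, 3.82, 1.12 and 0.47 in Group C and 5.20, 3.95, 6.78 and 5.51 in Group M, a difference of 3.97 (limma adjusted p = 0.0867). The groups did not overlap, although C2 lay close to M6. Spp1, which encodes osteopontin, differed by 2.51 (limma adjusted p = 0.0768). Of the JAK-STAT feedback list, 5 of 13 passed upwards and 7 did not overlap, with a median of 0.91. Socs3, an inhibitor of cytokine signalling, Osmr, the receptor of oncostatin M, and Bcl3, an IkB-like regulator, had differences of 1.61, 1.58 and 1.53 (limma adjusted p between 0.0895 and 0.105).

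All 12 heat shock proteins measured had a difference above 0, with a median of 0.61, and 3 passed the criterion. Hsph1, a co-chaperone of Hsp70, had -3.38, -2.63, -2.82 and -3.79 in Group C and -1.97, -2.35, -1.28 and -1.71 in Group M, a difference of 1.33 (limma adjusted p = 0.0961) without overlap. Hsp90aa1, the inducible Hsp90, differed by 1.06 (limma adjusted p = 0.101). Promoters were at hand from RefSeq (GRCr8), each a window of 300 bases around the start of the gene. They covered 9 members, but not Hspa1b or Hsp90aa1, which passed the criterion. The heat shock element (GAA, TTC and GAA, each parted by 2 bases of any kind) was sought on either strand. It was found in 4 of the 9, Hspa8, Hspd1, Hspe1 and Hsph1, and in 0.798% of all 33469 promoters. The windows of Hspd1 and Hspe1 overlap. Of these 4, Hspa8, Hspd1 and Hspe1 had differences of 0.31, 0.23 and 0.16 and did not pass the criterion. Hspb1 and Bag3, whose windows do not hold the element, had differences of 1.28 and 0.88 and did not pass either. The cyclic AMP element (TGAC joined to GTCA) lay in 4 of 12 promoters of immediate early genes, none of them past the criterion, and in 1.83% of all promoters. Promoters of Arc and Nr4a3, which passed the criterion, were not at hand. The AP-1 motif TGANTCA lay in 3 of 15 promoters of the wound matrix list, Mmp10, Mmp3 and Plaur, none of them past the criterion, and in 7.33% of all promoters. The window of Hsph1, the carrier of the heat shock element past the criterion, lies at chr12:10427118-10427417 on the plus strand, with the element in capitals.
Hsph1 promoter: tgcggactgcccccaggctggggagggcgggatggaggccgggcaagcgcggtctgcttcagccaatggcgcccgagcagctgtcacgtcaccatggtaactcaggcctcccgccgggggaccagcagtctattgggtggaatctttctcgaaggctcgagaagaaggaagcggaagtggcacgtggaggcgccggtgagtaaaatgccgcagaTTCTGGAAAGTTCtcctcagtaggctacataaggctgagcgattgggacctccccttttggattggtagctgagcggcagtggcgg

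Of the 20 immediate early genes, 3 passed the criterion, with a median of 0.64. Fosl1, a subunit of AP-1, had -7.35, -1.99, -6.73 and -7.24 in Group C and -0.80, -1.26, 0.94 and -0.02 in Group M, a difference of 5.54 (limma adjusted p = 0.0894). The groups did not overlap, although C2 lay close to M6, and 2 of 4 rats of Group C were well above background. Nr4a3, an orphan nuclear receptor, differed by 2.73 (limma adjusted p = 0.0981), and here C2 and M5 overlapped. Of the 23 chemokines listed, Ccl7, which attracts monocytes, passed the criterion, with a difference of 3.17 (limma adjusted p = 0.0891). Of the 21 chemokines measured, 13 had a difference above 0, and the median was 0.30. The list did not hold the chemokines Ccl2 and Cxcl1, which passed the criterion too, with 3.17 and 2.67. Among the 18 acute cytokines and NFkB targets, Ptx3, a soluble pattern receptor, and Icam1, an adhesion molecule, passed it with 2.46 and 1.22. These counts depended on M6. Without this rat, 6 immediate early genes, 6 chemokines and 7 acute cytokines and NFkB targets passed upwards, and without C2 these were 4, 3 and 4. Over all probes, upward passes also rose, from 417 with all rats to 1092 without M6 and 595 without C2. Of 12 oxidative stress genes, 3 passed upwards: Hmox1, which degrades heme, with 2.27, Slc7a11, a cystine transporter, with 1.83, and Gpx2, an epithelial glutathione peroxidase, with 1.78.

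In the xenobiotic metabolism list, 3 of 19 members passed the criterion downwards and the median was -0.66. Sult1c2, a sulfotransferase, had -1.998, -2.45, -2.12 and -1.86 in Group C and -2.87, -3.23, -5.91 and -3.50 in Group M, a difference of -1.77 (limma adjusted p = 0.121) without overlap. Sult1a1, of the same family, and Abcg2, an efflux transporter, differed by -1.49 and -1.10. Without M6, 6 of the 19 passed downwards, where 680 of all 30367 probes did. Of 20 genes of salt and water transport, 1 passed, the sodium-proton exchanger Slc9a5 with -1.0025 (limma adjusted p = 0.0867), 5 did not overlap downwards and the median was -0.46. Car1, a carbonic anhydrase of colonocytes, was the only absorptive marker past the criterion, with -1.61 (limma adjusted p = 0.106). Without M6, 3 absorptive markers and 2 genes of salt and water transport passed downwards, and without C2 these were 2 and 2. Of 17 tight junction genes, Cldn15 and Cldn23 passed the criterion with all rats, with -1.25 and -1.07. In that list 6 members had a difference above 0, and the median was -0.24. Without M6, and likewise without C2, 1 member passed upwards.

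With all rats, none of 17 genes of cholesterol synthesis and none of 19 of the respiratory chain passed the criterion, and 1 and 2 of them had a difference above 0, with medians of -0.53 and -0.25. Hmgcs1, which makes a precursor of mevalonate, had a difference of -1.03 (limma adjusted p = 0.247) and Sdhd, a subunit of succinate dehydrogenase, one of -0.60 (limma adjusted p = 0.116). Of 16 genes of branched-chain amino acid breakdown, Dbt passed downwards and Bcat1, a transaminase, upwards with 1.65 (limma adjusted p = 0.0867), and the median was -0.52. Among 16 genes of the glucocorticoid pathway, Cyp11a1, which starts steroid synthesis, and Fkbp5, a target of the receptor, passed upwards with 1.95 and 1.01, and Cyp17a1, a steroid hydroxylase, passed downwards with -1.07. In the thyroid hormone list, 2 of 10 passed, both downwards, and without M6 another 2 passed upwards. Without M6, 1 glucocorticoid pathway gene passed upwards and 2 genes of branched-chain amino acid breakdown passed downwards, and without C2 none of the latter did. Ereg, a ligand of the EGF receptor, passed downwards with -1.23, while Hbegf, Fgf2 and Fgf7, growth factors of the same list of 22, passed upwards with 2.40, 1.97 and 1.90.

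No member of the smooth muscle list (11 measured), the enteric neuron list (14), the fibroblast list (10), the macrophage list (10) or the interferon-stimulated list (18) passed the criterion, with medians of 0.05, 0.02, 0.12, 0.24 and 0.23. In the list of interstitial cells of Cajal, Gja1, a gap junction protein, passed with 1.03 (limma adjusted p = 0.109). Gja1 was the only 1 of the 5 members with a difference above 0, and the median of that list was -0.49. In the enteric glia list, Gfap, an intermediate filament protein of reactive glia, passed with 1.52 (limma adjusted p = 0.116). It was well above background in 2 of 4 rats of Group C and was the only 1 of 7 members to pass. Of the 6 glia members measured, 4 had a difference above 0, and the median was 0.42. Of 11 neutrophil genes, the receptor Cxcr1 (Il8ra in the files) was called by limma and was at least 2.98-fold lower in Group M, and the receptor Cxcr2 passed the criterion and was at least 3.48-fold higher, where 3 of 4 rats measured it. Without M6, 3 neutrophil genes passed upwards. In the plasma cell list, all 8 members had a difference above 0, and Pou2af1, a coactivator of antibody genes, and Irf4, a transcription factor of plasma cells, passed with 1.58 and 1.27.

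The spread within the groups was widest in lymphoid genes. The B cell list had a median difference of 2.01 with all 9 members above 0, and none passed the criterion. Its score was -1.45, 2.95, -0.83 and -0.71 in C1 to C4 and 3.57, -1.29, 2.63 and 3.16 in M5 to M8. C2 thus lay with M5, M7 and M8, and M6 with C1, C3 and C4. The T cell list, with a median of 0.87 and no member past the criterion, likewise had 1.80 in C2 and -0.91, the lowest score of all 8 rats, in M6. Ccl19, a chemokine of lymphoid tissue, had the largest SD in both groups, 3.48 in Group C and 3.65 in Group M. Its signal was 3.23 in C2 and at most -3.21 in the rest of Group C, and -4.45 in M6 and at least 2.50 in the rest of Group M. Glycam1, a ligand of lymphocyte homing, and Cd27, a receptor of lymphocytes, also had large SDs in Group C, 2.41 and 2.11.

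**Figure D3:**
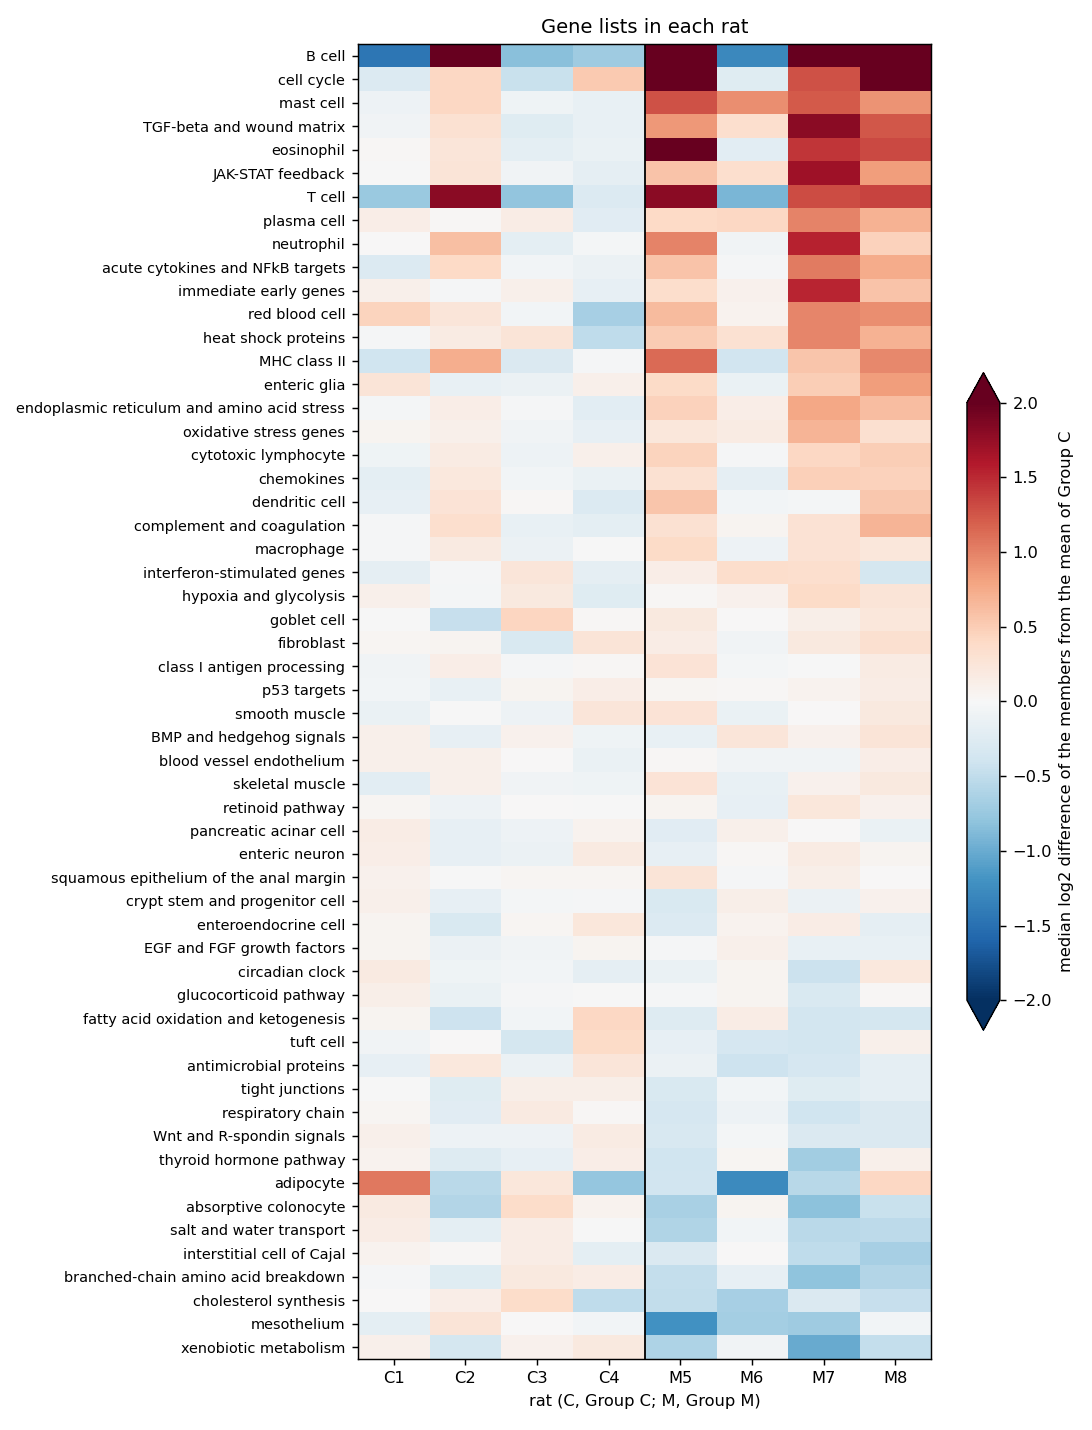
Score of each of the 56 gene lists (rows) in each rat (columns), as the median log2 difference of the members from the mean of Group C; colours are limited to -2 and 2, and a line divides the groups. The B cell and T cell scores are high in C2 and low in M6, while the mast cell scores and those of some other lists, such as the plasma cell list, separate the groups.

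In the cell cycle list, all 23 members had a difference above 0, with a median of 1.27, and 3 passed the criterion, Ccna2, Rrm2 and Plk1. Ccna2, a cyclin of DNA replication, had -2.63, -1.89, -3.20 and -1.56 in Group C and 0.42, -2.34, -0.31 and 0.31 in Group M, so that M6 lay among the rats of Group C. Without M6, 21 of the 23 passed the criterion, where 5.84% of all probes did in either direction, and without C2 none did, where 3.3% of all probes did. The part of lymphoid cells in these results was not tested. With the mean of the B cell list in the model, 7 probes were called by limma, all 7 among the 50.

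Epithelial genes also varied. Dnase1, a secreted nuclease, had -2.85, -5.14, 0.47 and 0.91 in Group C, and Slc9a3, an apical sodium-proton exchanger, -1.33, -5.61, -1.18 and -1.88, so that C2 was the lowest rat at both. G6pc, the glucose phosphatase, ranged from -5.84 to -1.20 in Group C and from -5.81 to -1.07 in Group M. In Group M, Retnlb, Retnla and Retnlg, of the resistin-like family, were lowest in M6, with -0.86, -4.42 and -3.92. Ubd, an inflammation-induced ubiquitin-like protein, was -3.92 in M6 and 0.51 to 1.25 in the others. Mmp3, a stromal metalloproteinase, was 0.83 in M7 and -4.64 to -3.34 in the others.

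Over all probes well above background, the median SD was 0.187 in Group C and 0.213 in Group M, and 58.8% had the larger SD in Group M. An SD of at least 1 was reached by 244 probes in Group C and 453 in Group M, 157 of them in both. Counted against the other rats of the group, 1477 probes of M6 and 890 of M7 lay at least 2-fold away, and 405 of M5 and 145 of M8. In Group C these were 700 in C2 and 162 to 392 in the others. The first principal component held 63.3% of the variance, with C1, C3 and C4 between -45.0 and -42.1, M6 at -25.7, C2 at 4.82 and M5, M7 and M8 between 38.1 and 68.7.

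**Figure D4:**
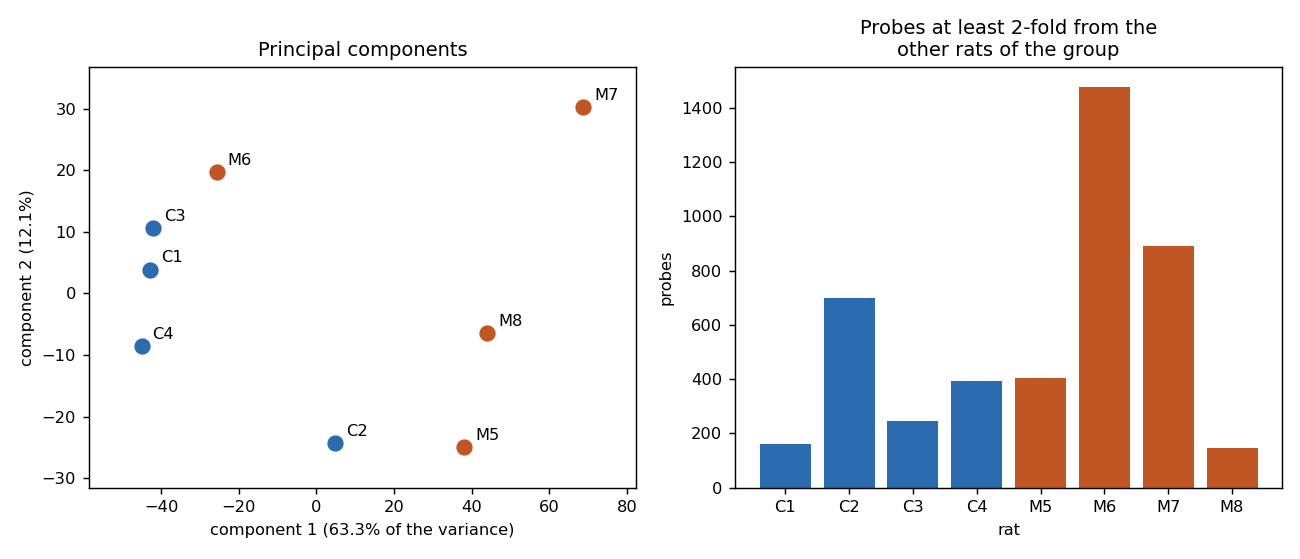
Left, the first principal component (x axis, 63.3% of the variance) against the second (y axis, 12.1%), 1 point for each rat, over the probes well above background in all 8 rats. Right, the number of probes at least 2-fold from the mean of the other rats of the same group, which is highest in M6 (1477) and second highest in M7 (890).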

How the data were processed

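RNA of each colon was labelled with Cy3 and hybridized to a rat oligonucleotide array, 1 for each rat. Per the file headers, the deposited intensity of each spot had been corrected for background and spatial trend by Agilent Feature Extraction 10.5.1.1, on a linear scale without normalization between arrays. The matrix of the authors holds log2 values whose columns share 1 distribution, as after quantile normalization (the method is not given in the sources used here), and was used as an alternative. Control spots and outlier spots were left out, log2 intensities were set relative to the 75th percentile of the array and the spots of a probe averaged. Probe positions are of rn4, and 20955 of 22949 named probes matched RefSeq (GRCr8). Where no rat of the dimmer group was well above background, the fold is a lower bound.

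The comparison used R 4.3.3 and limma 3.58.1 (functions lmFit and eBayes, 11 arrays, without D12 as in the study's methods; adjusted by Benjamini-Hochberg over all probes) and, beside it, the criterion of the methods. The script was tested on simulated data with known changes. Figures were drawn with matplotlib 3.10.9 under Python 3.11.15. Genes were named by rule: up to 15 rises and 15 falls called by limma and well above background on every array of the higher group, up to 4 called members of a list or 2 where none was called, and the 8 widest spreads of each group; placeholder names without a current symbol counted as unnamed. Cml3, Ccl2, Cxcl1 and the neighbours of called probes were added after their values were seen. The members and lists were chosen with earlier results of these data known. Alternatives were other normalizations, filters, thresholds, models and each rat left out in turn; those without M6 and C2 together and with the B cell list in the model were chosen after seeing the data. Some genes that the naming rule gave are not reported here.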

Additional observations from a re-analysis of the deposited data

Results flagged for a closer look

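Each group of 4 rats was tested for a rat far from the others, in 162 groups of values of named genes and list scores, and 11 had one; chance flags about 1 in 20 groups. Among log2 signals, C2 was apart in Thbs1 (-4.491, others -6.02 to -5.85), Fgf7 (-4.919) and Samd4a (-2.779), C3 in Pim1 (-5.341), M6 in Arc (-2.345) and M7 in Adh4 (-5.826). Among list scores, C2 was apart in the B cell list (2.946, others -1.45 to -0.7125) and the mast cell list (0.4138), and M6 in the lists of cytotoxic lymphocytes (-0.02632), Wnt and R-spondin signals (-0.04274) and salt and water transport (-0.06198).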

How the results depend on the processing

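The count of probes called by limma, 50 as reported, was 10 with all 12 arrays, 23 with the 8 arrays of Groups C and M alone, 78 with normexp, 28 with the matrix of the authors, 83 after a filter on dim probes (21363 tested) and 2125 with array weights, and it was 2442 for an unadjusted p up to 0.01 with any fold and 333 for an adjusted p up to 0.10 with 2-fold. It ranged from 5 to 1772 when 1 rat was left out, highest without M6. The count by the criterion of the methods, 701 as reported, was 318 with normexp and ranged from 352 (without M7) to 1772 (without M6). Of alternatives chosen after seeing the data, leaving out M6 and C2 together gave 2632 by limma and 2495 by the criterion, and the B cell list in the model gave 7 by limma. The cause was not tested. Of the 50 probes, 49 were called without M6, 50 without M6 and C2, 28 with normexp and 15 with 8 arrays. None of the 25 named genes changed sign in 20 alternatives, and Mrps10 kept a limma adjusted p up to 0.05 in all 20, Cml5 in 19 and Adh4 in 17. The other 22 kept it in 5 (Fibcd1) to 11 of the 20, with 8 for Hspa1b, Try10, Ccng1 and Fgl2 and 7 for Xirp1 and Trpa1.

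With the replicate number as a block, 1 probe was called by limma. Between rats of the same number, the deviations from the group means had correlations of -0.331, -0.717, -0.0661 and -0.121. These are correlations across genes, and C2 and M6 stood apart from their groups. The values therefore cannot show whether the numbers pair the rats. Rats of the same number also shared an array column of the slide.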
